A study of Mus musculus with 6 samples.

Results

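Oxidative phosphorylation is carried out by 5 protein complexes of the inner mitochondrial membrane. Complexes I to IV pass electrons from NADH and succinate to oxygen and complexes I, III and IV pump protons, and complex V, the ATP synthase, uses the proton gradient to make ATP. Most of their subunits are encoded in the nucleus and imported, and a few are encoded in mitochondrial DNA, which had no entry among the genes analysed here. Several subunits of complexes IV and V exist as isoforms from separate genes, some of which are used mainly in muscle, brown fat, lung or testis. The RNA of the nuclear genes was examined in tumors. The genes were taken by symbol, as all symbols beginning with Nduf, Cox4 to Cox8, Uqcr or Atp5, and Sdha, Sdhb, Sdhc and Sdhd. This rule was set with earlier results of these data known. The rule took 90 of the 23358 gene entries. Of these, 81 encode subunits, namely 36 of complex I, 4 of complex II, 8 of complex III, 18 of complex IV and 15 of complex V. The other 9 are 4 assembly factors of complex I (Ndufaf1 to Ndufaf4), the supercomplex factor Cox7a2l, the Ndufa4 paralog Ndufa4l2, and Cox4nb, Atp5s and Atp5sl, which share a symbol stem but encode no subunit.

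The samples were spontaneous tumors of 6 female mice carrying NT3, a NIK transgene that lacks the TRAF3-binding domain and is switched on by Cre. Tumors 13, 18 and 25 came from Osx-Cre;NT3 mice, in which Osterix regulatory sequence drives Cre, and all were on the trunk, with latencies of 150, 168 and 115 days. Tumors 27, 29 and 36 came from FSP1-Cre;NT3 mice, in which the S100a4 (FSP1) promoter drives Cre. Of these, tumor 29 lay on the trunk and the others, 27 and 36, were perineal, and the latencies of 27, 29 and 36 were 101, 72 and 52 days. Per the study's methods, Osx-Cre;NT3 mice received doxycycline chow until weaning, which keeps this Cre off, and the Osx-Cre line had a C57Bl/6J and CD1 mixed background and the FSP1-Cre line an FVB/n one. Each tumor was taken from a different mouse, and bulk tumor tissue also holds non-tumor cells. Line, strain background, doxycycline, latency and, in part, site cannot be told apart in 6 tumors. The average RNA integrity number in the labels was 7.7 in the Osx-Cre;NT3 group, below the 8.5 in the FSP1-Cre;NT3 group, and its part in any result was not tested. No normal tissue was analysed here, so all statements compare tumors with each other. The labels give the tissue only as a spontaneous trunk or perineal tumor, which cell type markers cannot check. Levels are given as CPM (TMM-scaled counts relative to library size). The 6 basal keratinocyte markers summed to 9954 to 14245 CPM in Osx-Cre;NT3 and 5670 to 12807 CPM in FSP1-Cre;NT3 tumors. The 6 fibroblast markers summed to 5194 to 6741 and 11543 to 14998 CPM, so both kinds of marker were present in every tumor. The study ascribes skin-related terms in its tumors to likely contamination by overlying skin, and the part of such skin here was not tested.

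The sequence just ahead of the start site, where regulators of mitochondrial genes are usually sought, is shown for 5 of the members. They are the members with the highest level per length in complexes I, III and V (Ndufb4, Uqcrh and Atp5b) and an isoform pair of complex IV, Cox7a2 and Cox7a1. Each run is the 250 bases before the RefSeq start site (GRCm38.p6), 5′ to 3′ on the gene's own strand. Capitals mark matches, on either strand, to any of 5 short motifs, namely GCGCANGC (core of NRF1 sites), CCGGAAG (core of ETS and GABP sites), ATGGCGGC (core of YY1 sites), TCAAGGTCA (ESRRA site) and TGACGTCA (cyclic AMP response element).
Ndufb4, chr16:37654369-37654618, minus strand: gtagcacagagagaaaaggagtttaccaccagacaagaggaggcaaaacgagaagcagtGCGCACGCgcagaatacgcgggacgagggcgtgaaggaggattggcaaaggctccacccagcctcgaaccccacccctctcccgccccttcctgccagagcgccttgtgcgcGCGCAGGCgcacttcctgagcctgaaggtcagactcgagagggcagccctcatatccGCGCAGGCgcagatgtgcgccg
Uqcrh, chr4:116075071-116075320, minus strand: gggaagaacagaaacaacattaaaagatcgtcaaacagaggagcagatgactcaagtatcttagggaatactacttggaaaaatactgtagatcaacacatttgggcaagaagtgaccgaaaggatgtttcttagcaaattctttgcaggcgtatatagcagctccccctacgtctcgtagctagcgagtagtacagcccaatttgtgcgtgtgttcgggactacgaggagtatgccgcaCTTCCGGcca
Cox7a2, chr9:79759854-79760103, minus strand: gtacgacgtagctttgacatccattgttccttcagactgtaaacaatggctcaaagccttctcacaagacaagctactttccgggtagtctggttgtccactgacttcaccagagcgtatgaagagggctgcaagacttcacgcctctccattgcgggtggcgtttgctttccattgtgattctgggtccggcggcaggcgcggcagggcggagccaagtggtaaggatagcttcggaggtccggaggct
Cox7a1, chr7:30183921-30184170, plus strand: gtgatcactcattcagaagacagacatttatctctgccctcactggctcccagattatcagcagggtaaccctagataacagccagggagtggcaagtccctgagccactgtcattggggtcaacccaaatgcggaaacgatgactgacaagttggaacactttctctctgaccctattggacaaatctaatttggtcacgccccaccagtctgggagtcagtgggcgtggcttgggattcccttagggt
Atp5b, chr10:128083057-128083306, plus strand: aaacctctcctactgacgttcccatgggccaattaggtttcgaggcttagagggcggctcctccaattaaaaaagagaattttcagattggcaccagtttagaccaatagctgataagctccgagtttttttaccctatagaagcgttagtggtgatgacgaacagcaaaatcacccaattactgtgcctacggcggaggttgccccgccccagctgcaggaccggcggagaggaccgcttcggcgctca
Ndufb4 held 3 matches, all to the NRF1 core, and Uqcrh 1, to the ETS core, while Cox7a2, Cox7a1 and Atp5b held 0 matches in this window. Windows were found for 74 of the 90 members. The NRF1 core was present in 20 of the 74 (27%) and in 9.38% of all 27025 genes in the promoter table, and the ETS core in 13 of the 74 (17.6%) and in 7.83% of all genes. The other motifs were rarer, with the cyclic AMP element in 4 members (5.41%, against 1.77% of all genes), the YY1 core in 2 (2.7%, against 1.19%) and the ESRRA site in 1 (1.35%, against 0.422%). All genes here include noncoding ones, no test was made, and a match is a description of letters rather than a binding site.

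Expression of these genes was high in all 6 tumors. Levels of different genes are compared here only as the deposited RPKM, which divides the count by the exonic length. Of the 90 members, 46 were among the 500 entries with the highest mean RPKM and 0 were among the top 100. In complex I the highest was Ndufb4, an accessory subunit, at 247 RPKM, and the median subunit had 83.7 RPKM. In complex II, which is also the succinate dehydrogenase of the citric acid cycle, mean RPKM ran from 57.8 for the flavoprotein Sdha to 99.1 for the iron-sulfur subunit Sdhb. Complex III ran from 70.6 for the Rieske protein Uqcrfs1 to 374 for the hinge protein Uqcrh, with a median of 176. In complex IV, Ndufa4, which was named as a complex I subunit and later assigned to complex IV, was highest at 612 RPKM, above a median of 161. In complex V, the catalytic subunit Atp5b had 522 RPKM and the median subunit had 270. The medians of complexes I and II were thus the lowest and that of complex V the highest.

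Only a few members were low. The testis isoforms Cox7b2 and Cox8c had 0 counts in all 6 tumors, which allows up to 0.0195 to 0.0621 CPM per tumor if 3 counts are taken as the limit. The remaining 88 members passed the filter on low counts and were tested. The complex I accessory subunit Ndufs5 had only 48 to 154 counts (0.718 to 1.20 CPM), far below the other subunits of its complex. Its span in the table is overlapped by the entry BC002163, a near-identical copy over 60.8% of the Ndufs5 transcript, which itself had 0 counts in every tumor. The level of Ndufs5 is therefore uncertain, and the part of this copy in it was not tested. Near-identical annotated transcripts of other genes (at least 95% identity over at least 100 bases) were found for 34 members and covered over 50% of the transcript in 14, mostly processed pseudogenes. The spans of 20 members overlapped another entry, and in 1 of these, Ndufa4l2, the other entry (Shmt2, 34 shared bases) had the higher count.

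The members rose and fell together across tumors, and the order of tumors did not follow the line. Summed over the members, the level was 17427 CPM in tumor 13, 19285 in tumor 18 and 9350 in tumor 25 among Osx-Cre;NT3, and 9376 in tumor 27, 10441 in tumor 29 and 13175 in tumor 36 among FSP1-Cre;NT3. Tumors 13 and 18 were thus high, tumors 25, 27 and 29 low, and tumor 36 between them, so that an Osx-Cre;NT3 tumor (25) was the lowest of the 6 and the lines overlapped. Relative to all counts, the members took 1.62%, 1.82% and 0.946% in tumors 13, 18 and 25, against 1.03%, 1.08% and 1.31% in tumors 27, 29 and 36. Gene by gene, 73 of the 88 tested members had tumors 13 and 18 as their 2 highest, and 69 had tumors 25, 27 and 29 as their 3 lowest. Tumor 18 was the highest in 59 members and tumor 13 in 18, and tumor 25 was the lowest in 49 and tumor 27 in 28. As the deviation of log2 CPM from each gene's mean over the 6 tumors, the members' median was 0.51, 0.66 and -0.47 in tumors 13, 18 and 25, against -0.43, -0.26 and 0.06 in tumors 27, 29 and 36.

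**Figure D1:**
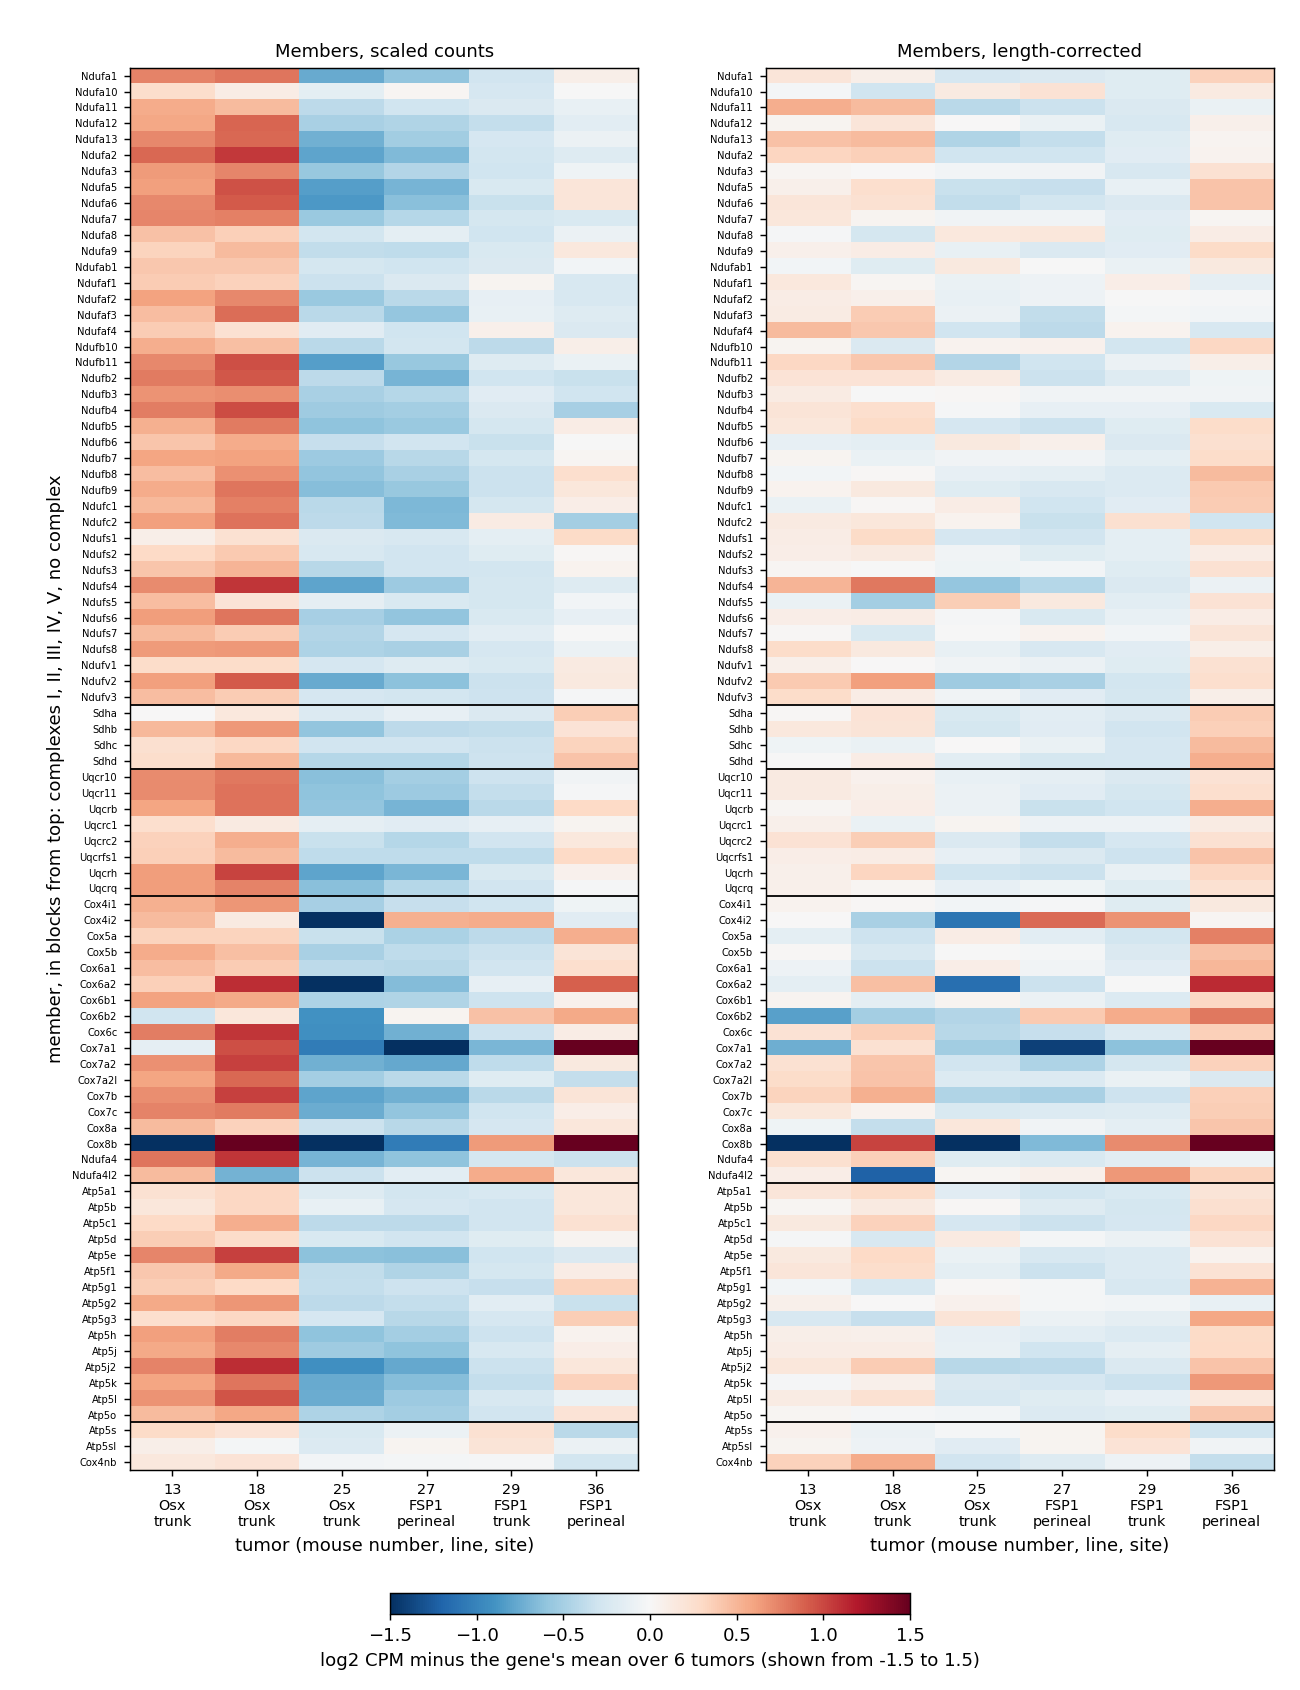
Each row is 1 of the 88 tested members and each column 1 of the 6 tumors; color is log2 CPM minus the gene's mean over the 6 tumors, from scaled counts (left) and after removal of the length trend (right), and horizontal lines part complexes I, II, III, IV, V and the members of no complex. Colors are limited to the range of the scale; on the left tumors 13 and 18 are above and tumors 25, 27 and 29 below the mean in most rows, and on the right these differences are smaller while tumor 36 has a median of 0.23.

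Within the chain, complexes I, III, IV and V each had tumors 13 and 18 highest, tumor 36 next and tumors 25, 27 and 29 lowest. The median deviations of complex I were 0.56, 0.71 and -0.45 in tumors 13, 18 and 25, against -0.44, -0.26 and -0.04 in tumors 27, 29 and 36. Complex II differed in that tumor 36, at 0.35, was close to tumors 13 (0.25) and 18 (0.40). The 9 members that are not subunits also differed, since tumor 36 was second lowest among them at -0.24 and tumor 29, at 0.05, was close to the mean. The range of a single gene across tumors varied widely. Of the 73 subunits with a mean over 20 CPM, the core protein Uqcrc1 varied least, 1.34-fold from the lowest to the highest tumor, and Atp5j2, a subunit of the membrane part of the synthase, varied most, 4.08-fold. The median was 2.27-fold, against 1.91-fold for all 8236 tested genes over 20 CPM.

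Between the lines, 81 of the 88 members were lower in FSP1-Cre;NT3 than in Osx-Cre;NT3 tumors. Their median log2 fold change was -0.47, against 0.01 for all 16415 genes tested, and 0 members passed an adjusted p of 0.05. The same held for all genes, of which 0 were called (0.0%), with 1770 at an unadjusted p under 0.05, while DESeq2 called 420 genes. The smallest adjusted p of a member was 0.458 (edgeR, quasi-likelihood, adjusted by Benjamini-Hochberg). At an unadjusted p under 0.05, 2 members were lower (2 of 88), where 3.47% of all genes were lower by that rule, and 0 were higher, where 7.31% of all genes were. In 0 members were all 3 FSP1-Cre;NT3 tumors below all 3 Osx-Cre;NT3 tumors, where 8.02% of all genes had that pattern. DESeq2 called 0 members, with 4 of 88 at an unadjusted p under 0.05, where 2343 of all 16415 genes were below that limit. By complex, 40 of 40 in complex I, 8 of 8 in complex III and 15 of 15 in complex V were lower, with medians of -0.58, -0.60 and -0.44. In complex II 3 of 4 were lower (median -0.19), and in complex IV 13 of 18 (median -0.37). Of all 16415 genes 8030 were lower, and of the 1446 tested genes under 1000 bases 989 were.

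The 2 members with an unadjusted p under 0.05 were Ndufb2 and Ndufb4, both accessory subunits of the membrane arm of complex I. Ndufb2 (chromosome 6, 39592583 to 39599471, mm10) had 123, 136 and 54.2 CPM in tumors 13, 18 and 25, and 44.0, 58.2 and 56.5 CPM in tumors 27, 29 and 36. The low Osx-Cre;NT3 tumor 25 lay within the range of the FSP1-Cre;NT3 tumors. Its log2 fold change was -0.98 with a standard error of 0.36, and the adjusted p was 0.458. Ndufb4 (chromosome 16, 37647602 to 37654368) had 219, 255 and 89.5 CPM in tumors 13, 18 and 25, and 90.9, 111 and 91.4 CPM in tumors 27, 29 and 36. Here tumor 25 was the lowest of the 6. Its log2 fold change was -0.94 with a standard error of 0.38, and the adjusted p was again 0.458. A processed pseudogene, Ndufb4c, is identical to 40.2% of the Ndufb4 transcript, so some reads could have been lost or shared.

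The leading members of the other complexes showed the same split of the Osx-Cre;NT3 tumors. Ndufa4 in complex IV had 595, 717 and 211 CPM in tumors 13, 18 and 25, and 225, 285 and 271 CPM in tumors 27, 29 and 36. Tumor 25 was again the lowest, and the difference between the lines (log2 fold change -0.96, standard error 0.44, adjusted p = 0.463 by edgeR) was within the spread of the Osx-Cre;NT3 tumors. Uqcr11, a small subunit of complex III, had 145, 156 and 58.4 CPM against 60.6, 69.1 and 87.1 CPM in the same order of tumors. Its log2 fold change was -0.73 with a standard error of 0.38. Atp5e, the epsilon subunit of the synthase, had 351, 432 and 138 CPM against 137, 172 and 181 CPM. Tumors 25 and 27 were nearly equal in it, and the log2 fold change was -0.91 with a standard error of 0.41. In Sdhb the values were 179, 200 and 84.7 CPM against 97.4, 98.5 and 146 CPM, and the log2 fold change was -0.44 with a standard error of 0.36.

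The result depended on tumor 25. Without it the members' median between the lines was -0.78 and 84 of 88 were lower. At an unadjusted p under 0.05 (edgeR) were 66 of the 88 members and 4245 of all 16820 genes tested. Of members and of all genes, 0 passed the adjusted threshold. All tested genes under 1000 bases split the same way, with median deviations of 0.46, 0.61 and -0.44 in tumors 13, 18 and 25. Their share below that p without tumor 25 was not counted, so the 66 members cannot be set against genes of like length. Leaving out tumor 13 or 18 gave medians of -0.35 and -0.30. With the trunk tumors alone, where FSP1-Cre;NT3 is represented only by tumor 29, the median was -0.57.

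Between the sites, 76 of the 88 members were lower in the 2 perineal than in the 4 trunk tumors. Their median log2 fold change was -0.36, against -0.02 for all 16971 genes tested, and 0 members were called. Of all genes 8740 were lower, and of the 1564 tested genes under 1000 bases 1059 were. Over all genes, 0 were called as well (0.0%), with 1784 at an unadjusted p under 0.05, while DESeq2 called 605 genes. The smallest adjusted p of a member was 0.428 (edgeR). Of the members 1 was lower at an unadjusted p under 0.05, where 1.63% of all genes were. Both perineal tumors were below all trunk tumors in 2 members, Ndufc2 and the assembly factor gene Ndufaf4, where 9.44% of all genes had that pattern. DESeq2 also called 0 members, with 1 of 88 at an unadjusted p under 0.05, where 2335 of all 16971 genes were below that limit. The direction turned within a line. In the FSP1-Cre;NT3 tumors alone, with 2 perineal and 1 trunk tumor, 27 of 88 members were lower and the median was 0.08, and it was 0.08 with line as a covariate. The 2 perineal tumors went opposite ways. Against a members' median deviation of -0.26 in trunk tumor 29, tumor 27 had -0.43 and tumor 36 had 0.06.

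Ndufc2 (chromosome 7, 97400003 to 97407800), an accessory subunit of complex I, had 241, 277, 120 and 172 CPM in the trunk tumors 13, 18, 25 and 29, and 99.7 and 110 CPM in the perineal tumors 27 and 36. The groups did not overlap, but the gap between perineal tumor 36 and trunk tumor 25 was small beside the spread of the trunk tumors. The log2 fold change was -0.95 with a standard error of 0.37, and the adjusted p was 0.428. Ndufb2 and Ndufb4 had log2 fold changes of -0.89 (standard errors 0.45 and 0.46) between the sites, Atp5e of -0.78 (0.50) and Uqcrh of -0.59 (0.53). For Uqcrh the CPM were 360, 475, 135 and 200 in the trunk tumors and 146 and 245 in the perineal ones, so the groups overlapped. In the other direction, Sdha had 206, 228, 178 and 176 CPM in trunk tumors 13, 18, 25 and 29 and 188 and 264 CPM in perineal tumors 27 and 36. The log2 fold change of Sdha was 0.19 with a standard error of 0.24, and that of Sdhb was -0.21 with a standard error of 0.41.

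Many of these genes are short, and the median level of all short genes also differed between the tumors. The exonic length of the members in the table ran from 292 to 4933 bases with a median of 680.5, against 2731 for all genes tested, and 61 of the 90 were under 1000 bases. Among all tested genes under 1000 bases, the median deviation from the gene mean was 0.46, 0.61 and -0.44 in tumors 13, 18 and 25, against -0.33, -0.12 and -0.18 in tumors 27, 29 and 36. The members under 1000 bases had 0.59, 0.76 and -0.56, and -0.51, -0.27 and 0.06, in the same tumors. For members of 1000 bases or more the values were smaller in size, 0.34, 0.40 and -0.32, and -0.30, -0.24 and 0.11. Of the short genes tested, 4.08% were members, and the 1284 that were neither members nor ribosomal protein genes still had a median log2 fold change of -0.36 between the lines and -0.39 between the sites. The median between the lines was -0.59 for short and -0.31 for longer members, and -0.44 and 0.04 for all short and longer genes.

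**Figure D2:**
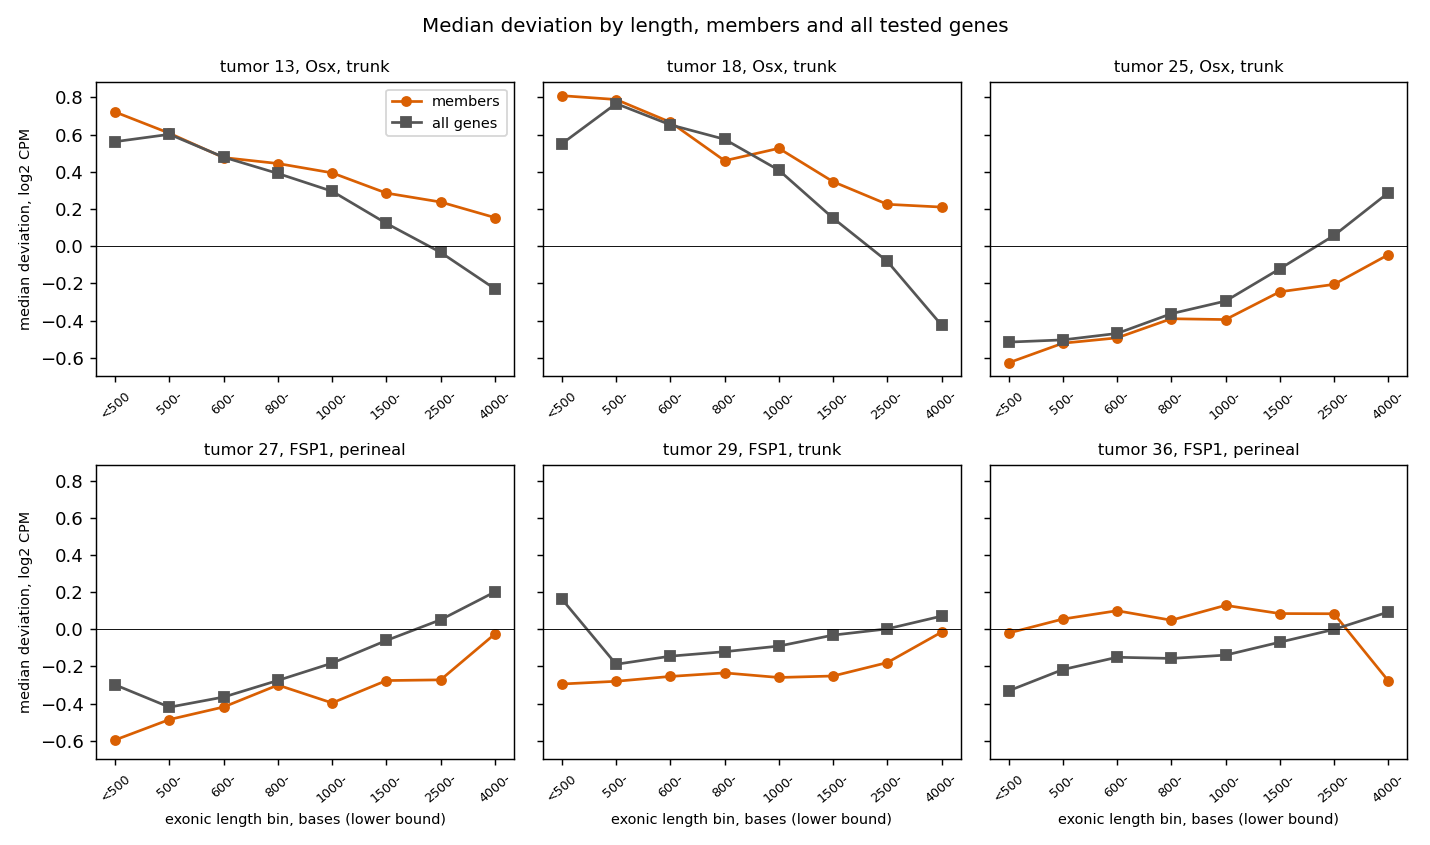
Median deviation of log2 CPM from the gene mean (vertical axis) in 8 bins of exonic length in bases (horizontal axis), for members (orange circles) and all tested genes (gray squares), with 1 panel for each tumor; the last bin holds 1 member. Both lines broadly fall with length in tumors 13 and 18 and rise in tumors 25 and 27, and in tumor 36 the members lie above all genes in every bin except the last.

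At matched length the members ran near all genes in some tumors and apart in others. In the bin from 600 to 800 bases, with 17 members among 466 genes, members and all genes had 0.48 and 0.48 in tumor 13, 0.67 and 0.65 in tumor 18, and -0.49 and -0.47 in tumor 25. In the same bin they had -0.42 and -0.36 in tumor 27 and -0.25 and -0.14 in tumor 29, while in tumor 36 members had 0.10 and all genes -0.15. Under 500 bases, with 16 members among 267 genes, they lay further apart. There members and all genes had 0.72 and 0.56 in tumor 13, 0.81 and 0.55 in tumor 18, and -0.63 and -0.52 in tumor 25. In tumors 27, 29 and 36 members had -0.60, -0.29 and -0.02, and all genes -0.30, 0.16 and -0.33. Between lines the median log2 fold change was -0.68 for members and -0.22 for all genes, against -0.44 and -0.45 from 600 to 800 bases. In the bin from 1500 to 2500 bases, with 10 members, tumor 13 had 0.29 for members against 0.12 for all genes, tumor 29 had -0.25 against -0.03 and tumor 36 had 0.08 against -0.07. Across the 88 members, Spearman's correlation of length with the deviation was -0.57, -0.55 and 0.58 in tumors 13, 18 and 25, against 0.58, 0.32 and 0.03 in tumors 27, 29 and 36. These genes share libraries and a scaling and are no independent replicates. Over all 16415 genes the same correlation was -0.43, -0.48 and 0.41, and 0.37, 0.15 and 0.13.

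A smooth trend of the deviation on length was then removed from all genes in each tumor. This brought the members' median deviations to 0.08, 0.11 and -0.11 in tumors 13, 18 and 25, against to -0.19, -0.18 and 0.23 in tumors 27, 29 and 36. Tumor 36 became the highest and the 2 other FSP1-Cre;NT3 tumors the lowest. Between the lines the median was then -0.03 in place of -0.47, with 52 of 88 members lower and 36 higher. By complex, 28 of 40 were then lower in I, 1 of 4 in II, 6 of 8 in III, 6 of 18 in IV and 10 of 15 in V. Of all 16415 genes 8299 were lower after this correction. Between the sites the median turned from -0.36 to 0.06, with 36 lower and 52 higher. A relation to length remained in the opposite direction. Spearman's correlation of the members' fold change with length went from 0.46 to -0.25 between the lines and from 0.37 to -0.28 between the sites. Over all genes tested it went from 0.30 to -0.05 between the lines and from 0.27 to -0.04 between the sites. Between the lines 23 of the 29 members of 1000 bases or more were still lower (median -0.13), and the shorter members had a median of 0.0004. Again 0 members were called in either comparison, with smallest adjusted p of 0.389 and 0.318 (edgeR). At an unadjusted p under 0.05 there were 4 members between the lines, with Cox4i2 and Cox6b2 higher and Ndufb2 and Ndufb4 lower, where 12.5% of all genes were below that limit in either direction, and 2 between the sites, Cox7a1 higher and Ndufc2 lower, where 12.0% were. By complex, the length-corrected medians in tumor 36 were 0.12 for I, 0.43 for II, 0.24 for III, 0.36 for IV and 0.28 for V, and -0.14 for the 9 members that are not subunits. In tumor 29 they were -0.17, -0.25, -0.24, -0.18 and -0.21 for complexes I to V. The part of RNA integrity in this trend was not tested.

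**Figure D3:**
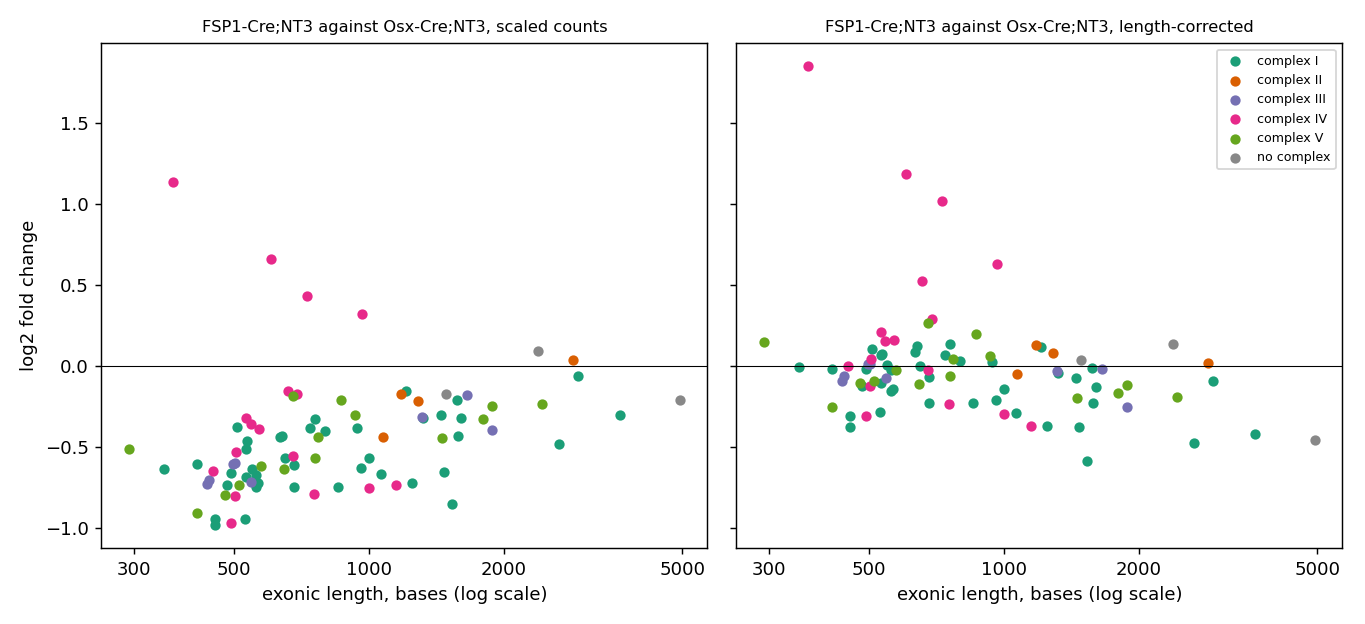
Log2 fold change of FSP1-Cre;NT3 over Osx-Cre;NT3 (vertical axis) against exonic length in bases (horizontal log axis) for 87 tested members colored by complex, without Cox8b, which was at 0 in 2 tumors; left from scaled counts, right after length correction. On the left most points lie below 0 and the lowest are among the shorter genes, with a median of -0.47, and on the right the points spread around 0, with a median of -0.03. Over all 88 tested members, Spearman's correlation of the fold change with length was 0.46 from scaled counts and -0.25 after length correction.

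Several isoforms of complex IV were present at low levels. Cox6b2, known as the testis isoform of subunit VIb, had 0.745, 1.04 and 0.479 CPM in tumors 13, 18 and 25, and 0.951, 1.26 and 1.37 CPM in tumors 27, 29 and 36. Tumor 18 lay above tumor 27, so the lines overlapped. Its log2 fold change between the lines was 0.66 with a standard error of 0.46 (adjusted p = 0.551 by edgeR) and 1.19 after length correction, and these values rest on 34 to 160 counts. It made up 0.200% to 0.630% of the RPKM of Cox6b1 and Cox6b2 together. Cox4i2, an isoform of subunit IV known from lung and from cells under low oxygen, had 7.04, 5.57 and 1.75 CPM against 7.37, 7.49 and 4.49 CPM in the same order. Tumor 25 was low in it, and Cox4i2 was 0.572% to 2.15% of the RPKM of the pair, with Cox4i1 at 283 to 633 CPM. The muscle isoform Cox6a2 had 14 to 218 counts (0.197 to 1.42 CPM) and at most 0.447% of the RPKM of its pair. Ndufa4l2, a paralog of Ndufa4 known as a target of hypoxia signaling, had 5.48 to 13.3 CPM and 0.389% to 2.33% of the RPKM of its pair.

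The muscle and heart isoform of subunit VIIa, Cox7a1, stood out in 1 tumor. Cox7a1 (chromosome 7, 30184171 to 30186030) had 1.41, 3.04 and 0.732 CPM in tumors 13, 18 and 25, and 0.430, 0.949 and 10.01 CPM in tumors 27, 29 and 36. Tumor 36 was thus the highest and the other perineal tumor, 27, the lowest. Between the lines the log2 fold change was 1.13 with a standard error of 1.18 (adjusted p = 0.696 by edgeR), and between the sites it was 1.76 with a standard error of 1.05 (adjusted p = 0.567). Without tumor 36 these values turned to -1.33 and -1.83. Of the RPKM of Cox7a1 and Cox7a2 together, Cox7a1 held 0.879% to 1.78% in 5 tumors and 9.91% in tumor 36. The common form Cox7a2 had 274, 346 and 103 CPM, and 99.8, 130 and 187 CPM, with tumor 36 below tumors 13 and 18. Cox8b, the muscle and brown fat isoform of subunit VIII, had 0, 56 and 0 counts in tumors 13, 18 and 25, against 2, 12 and 60 in tumors 27, 29 and 36. The last corresponds to 0.935 CPM, or 0.558% of the RPKM of the family, in which Cox8a had 167 to 311 CPM.

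**Figure D4:**
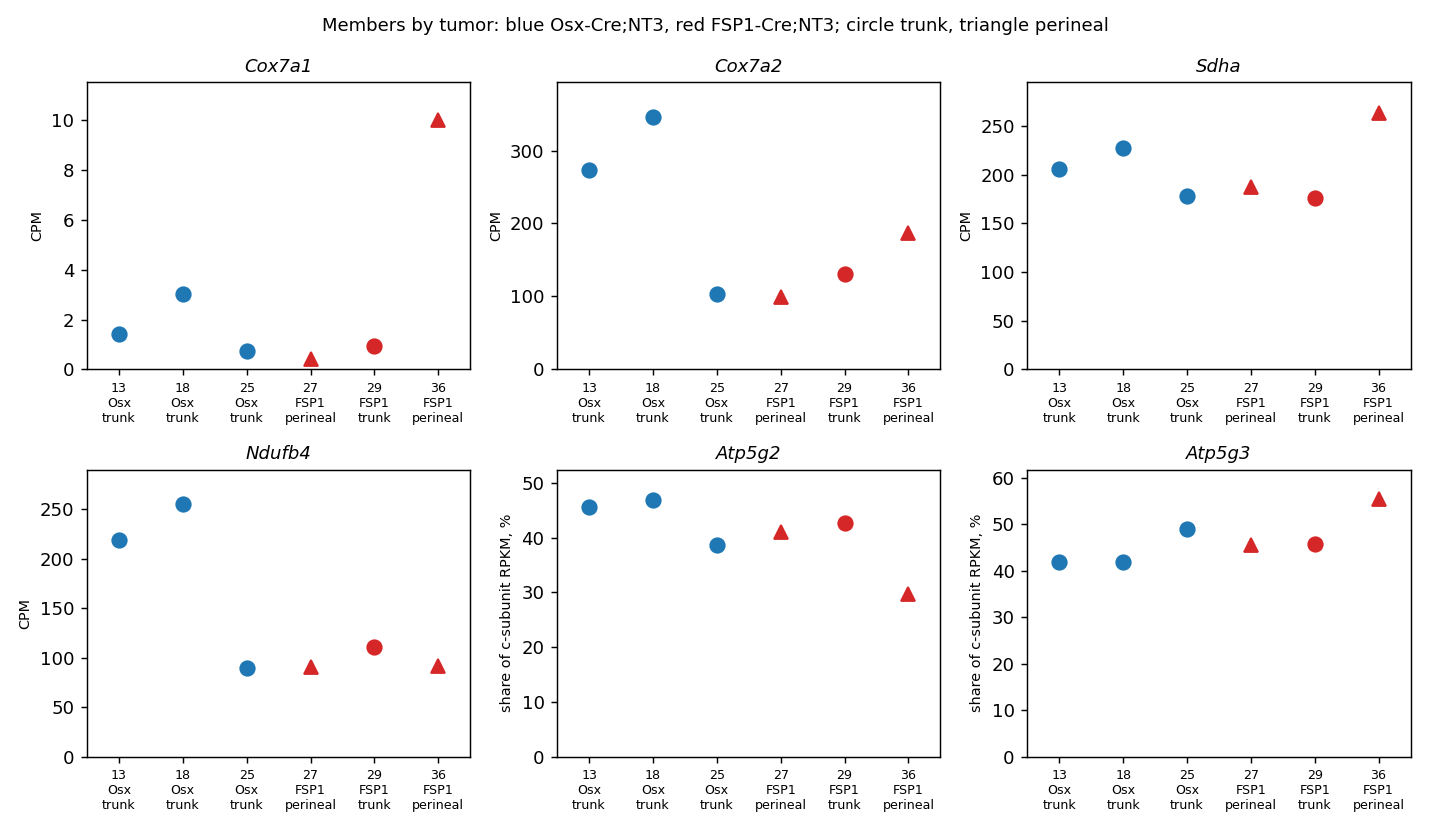
Values in each of the 6 tumors for Cox7a1, Cox7a2, Sdha and Ndufb4 in CPM and for Atp5g2 and Atp5g3 as a percentage of the c-subunit RPKM (vertical axes from 0); blue is Osx-Cre;NT3, red FSP1-Cre;NT3, circles are trunk and triangles perineal tumors. Tumor 36 is highest in Cox7a1 at 10.01 CPM, Sdha at 264 CPM and the Atp5g3 share at 55.4%, and Ndufb4 is near 90 CPM in tumors 25, 27 and 36.

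Tumor 36 also stood apart in markers of several other cell types, and their part in the levels of Cox7a1, Cox8b and the other members in that tumor was not tested. The 14 skeletal muscle markers summed to 49.4 to 161 CPM in Osx-Cre;NT3 and 43.6 to 441 CPM in FSP1-Cre;NT3 tumors, of which Des, also a smooth muscle gene, alone had 292 CPM in tumor 36. Without Des the other 13 summed to 144 CPM in tumor 18, 134 in tumor 29 and 149 in tumor 36, so these 3 tumors were close, and the median deviation of the list was higher in tumor 18 (1.38) than in tumor 36 (1.29). By the line comparison 9 of these 14 were higher in FSP1-Cre;NT3. Of the 8 cardiac and slow muscle markers 6 were tested, 4 were higher, and their sum was 34.3 CPM in tumor 36 against 5.42 to 10.2 CPM in the others, although their median deviation was higher in tumor 18 (0.57) than in tumor 36 (0.42). The 8 white adipocyte markers summed to 73.8 to 93.4 CPM in Osx-Cre;NT3 and 71.1 to 214 CPM in FSP1-Cre;NT3 tumors, and 7 of 8 were higher. Pnpla2 alone had 55.4 to 76.6 CPM of these sums. Perineal tumor 27 was also raised in this list, with a median deviation of 1.76, against 3.35 in tumor 36 and -0.11 or lower in the trunk tumors. Both perineal tumors were above all trunk tumors in 7 of these 8 markers, where 1738 of all 16971 genes had that pattern. The 5 brown adipocyte markers of which 4 were tested, summed to 1.60 to 3.79 CPM in Osx-Cre;NT3 and 2.69 to 47.5 CPM in FSP1-Cre;NT3 tumors, with 4 of 4 higher, but the defining gene Ucp1 was at 0 counts in 5 tumors, 36 included. Smooth muscle and myoepithelial markers summed to 284 to 542 CPM in Osx-Cre;NT3 and 323 to 2611 CPM in FSP1-Cre;NT3 tumors, and 6 of 6 were higher. Simple epithelium markers summed to 4744 CPM in tumor 36 against 620 to 1188 CPM in the others, and neutrophil markers to 510 against 70.3 to 215 CPM. In tumor 36 S100a8 and S100a9 alone had 164 and 269 CPM of the neutrophil sum. Csf3r and Cxcr2 were also highest there (24.1 and 13.9 CPM), but Mmp9, at 39.3 CPM, was below tumors 18, 25 and 27. Basal keratinocyte markers were lowest in tumor 36, at 5670 against 9954 to 14245 CPM. In bulk tissue, fewer cells of a type and less RNA per cell cannot be told apart.

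The c subunit, whose ring turns in the membrane part of the synthase, is encoded by the genes Atp5g1, Atp5g2 and Atp5g3, whose mature proteins are alike. In 5 tumors Atp5g2 held 38.6% to 46.8% of their RPKM and Atp5g3 41.8% to 48.9%. In tumor 36 the share of Atp5g2 was 29.7% and that of Atp5g3 55.4%, the lowest and the highest of the 6. Atp5g1 held 11.4% to 14.9%, and was highest in tumor 36 as well. In CPM, Atp5g2 had 382, 408 and 195 in tumors 13, 18 and 25, against 200, 230 and 204 in tumors 27, 29 and 36. Atp5g3 had 368, 382 and 260, and 232, 259 and 398. Tumor 36 was therefore low in one gene and the highest in the other. Near-identical processed pseudogenes cover 59.5% of the Atp5g1 and 50.6% of the Atp5g2 transcript, so these shares are uncertain in size.

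In complex II the split of the Osx-Cre;NT3 tumors was small in Sdha and wider in Sdhb and Sdhd. Sdha, at 2859 bases the longest of them, varied from 176 to 264 CPM. Sdhc, which anchors the complex in the membrane, had 141, 148 and 97.7 CPM in tumors 13, 18 and 25 and 97.4, 95.2 and 150 CPM in tumors 27, 29 and 36. The other anchor, Sdhd, had 163, 190 and 101 CPM against 101, 109 and 181 CPM. In all 4 genes tumor 36 was well above the other FSP1-Cre;NT3 tumors, and it was the highest of the 6 in Sdha and Sdhc. Tumor 36 was also the highest in Atp5g3, Cox5a, Cox6b2, Cox7a1, Cox8b and Ndufs1, which makes 8 members in all. Atp5b, the most abundant complex V gene per length, had 1365, 1508 and 1129 CPM in tumors 13, 18 and 25 and 1021, 994 and 1361 CPM in tumors 27, 29 and 36.

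Other lists of related function were set beside the members, and 0 of their genes were called in either comparison (edgeR, adjusted p under 0.05). Of 36 other nuclear genes of the chain, mostly assembly factors and cytochrome c, 34 were tested and 30 were lower in FSP1-Cre;NT3, with a median log2 fold change of -0.32 and 2 at an unadjusted p under 0.05. Cytochrome c itself, Cycs, had 211, 256 and 117 CPM in tumors 13, 18 and 25, and 104, 124 and 220 CPM in tumors 27, 29 and 36. Of the 76 mitochondrial ribosomal protein genes 76 were lower (median -0.55, 8 at an unadjusted p under 0.05), and of the 82 tested cytosolic ones 82 were lower (median -0.74, 1 at an unadjusted p under 0.05). These ribosomal genes had median lengths of 1053 and 710 bases. The 13 citric acid cycle genes, with a median length of 2243 bases, had a median of -0.17 and 12 were lower. After length correction the medians were -0.10 for the other chain genes, -0.17 and -0.23 for mitochondrial and cytosolic ribosomal proteins and -0.05 for the citric acid cycle. Between the sites the uncorrected medians were -0.39, -0.50, -0.75 and -0.03 in that order. The 16 glycolysis genes had a median of -0.47 between the lines, with 12 lower and 5 at an unadjusted p under 0.05, and -0.41 after length correction. Their pattern over tumors was unlike that of the members, with median deviations of 0.32, -0.02 and 0.30 in tumors 13, 18 and 25, against -0.22, -0.37 and 0.04 in tumors 27, 29 and 36. Gapdh, 1 of the 5 glycolysis genes below that p, had only 51.2 to 92.8 CPM, and Eno1 only 5.21 to 8.69 CPM. Near-identical copies were looked for only for the members, so the levels of these genes are uncertain. All FSP1-Cre;NT3 tumors were below all Osx-Cre;NT3 tumors in 7 of the 16 glycolysis genes, and in 0 members. That pattern was present in 7 of the 76 mitochondrial ribosomal protein genes and in 8.02% of all genes. The list genes counted at an unadjusted p under 0.05 were all lower in FSP1-Cre;NT3, and 3.47% of all genes were lower by that rule.

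The lists differed in tumor 36. Its length-corrected median deviation was 0.23 for the members, 0.17 for the citric acid cycle and 0.12 for glycolysis, but -0.01 for the other nuclear genes of the chain, -0.10 for mitochondrial and -0.18 for cytosolic ribosomal proteins. Of 13 regulators of mitochondrial biogenesis, 6 were higher and 7 lower between the lines, with 0 called and 2 of 13 higher at an unadjusted p under 0.05, where 7.31% of all genes were. Those were Ppargc1a, the coactivator PGC-1 alpha, and its relative Ppargc1b. Ppargc1a had 0.0828, 0.0520 and 0.282 CPM in tumors 13, 18 and 25, and 0.153, 0.410 and 10.8 CPM in tumors 27, 29 and 36. Tumor 36 alone was above 1 CPM. The factors that bind the motifs above were more even, with Nrf1 at 29.6 to 35.8 CPM, Gabpa at 38.5 to 56.4 CPM, Esrra at 50.9 to 78.2 CPM and Yy1 at 67.7 to 109 CPM. Tfam, which packages and transcribes mitochondrial DNA, had 93.0, 115 and 65.0 CPM in tumors 13, 18 and 25, and 68.0, 73.2 and 56.4 CPM in tumors 27, 29 and 36, so that tumor 36 was its lowest.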

How the data were processed

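RNA was sequenced from 6 tumors with an Illumina mRNA v2 kit, and per the labels the tumors were grouped by Cre line and by site. The count values, as deposited by the authors, are raw counts per gene entry, and every count is even. The study's methods name HISAT2 (Galaxy version 2.1.0) and featureCounts on mm10, while the submitters' processing notes name bcl2fastq, TopHat2 2.0.6 and HTSeq. The annotation and strand setting are not given in the sources used here. The RPKM values, as deposited by the authors, divide counts by the table's exonic length and served only to compare genes. Total counts were 51824408 to 163297772 per tumor, and 3 counts corresponded to 0.0195 to 0.0621 CPM, which covers counting error only.

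Counts were tested with edgeR 4.0.16 (quasi-likelihood, TMM scaling, filterByExpr, Benjamini-Hochberg adjustment over all genes tested, two-sided, threshold 0.05) in R 4.3.3. DESeq2 1.42.0 was an alternative. Log2 CPM used a prior count of 2, except for single genes in the search for a distant tumor, where no prior count was added. The length correction removed, in each tumor, a loess curve (span 0.5) of the deviation on log2 exonic length. Fits were checked on simulated counts. Named genes were the members highest per length, with the largest fold change or the smallest p in a comparison, the tissue isoforms and the 4 Sdh genes. Ndufaf4, Ndufs5, Uqcrc1, Uqcrfs1 and Atp5j2 were named after their values were seen. The members and lists were chosen with earlier results of these data known.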

Additional observations from a re-analysis of the deposited data

Results flagged for a closer look

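Of 94 sets of values examined for a single distant tumor, 1 stood out, where chance alone would give about 4.7. In Cox4i2, tumor 25 had a log2 CPM of 0.80, and the nearest of the other 5 tumors had 2.17, a gap of 0.648 of the whole range. The difference was not tested further.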

How the results depend on the processing

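The members' median between the lines stayed below 0 under DESeq2, library sizes alone, upper-quartile scaling, both other filters, halved counts, the site covariate and the trunk tumors alone (-0.35 to -0.57). Library sizes alone moved the median of all genes from 0.01 to 0.13. Length correction brought it near 0 (-0.03, or -0.06 when the members and ribosomal genes were kept out of the curve). Between the sites it turned above 0 with length correction (0.06, or 0.04), with line as a covariate (0.08) and in FSP1-Cre;NT3 tumors alone (0.08). The level of tumor 18 moved from 0.66 to 0.11 with length correction. Leaving out 1 tumor at a time gave medians from -0.78 to -0.30 between the lines and from -0.64 to -0.17 between the sites, with 0 members called. Over all genes these fits called 0 between the lines, and between the sites 567 of 17713 (3.2%) without tumor 27, 2 of 16820 without tumor 25 and 0 otherwise. With length correction as well, the median between the lines turned to 0.015 without tumor 27 and 0.023 without tumor 29, and that between the sites was 0.21 without tumor 27. In this last fit 866 of all 17713 genes (4.89%) and 1 of 88 members were called, Cox7a1 (log2 fold change 3.27, adjusted p = 0.0187 by edgeR), where tumor 36 is the lone perineal tumor and is assumed to vary like the others. DESeq2 called 420 genes between the lines and 605 between the sites where edgeR called 0, and 0 of them were members.

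Fold changes were followed under each alternative only for members named for a fold change or p in that comparison. This restriction was made after the values were seen, because over all 27 named members with a fitted fold change the sign turned often. With length correction 8 of 27 turned between the lines and 9 of 27 between the sites, with line as a covariate or FSP1-Cre;NT3 tumors alone 12 of 27 between the sites, and with site as a covariate or trunk tumors alone 2 of 27 between the lines. Leaving out 1 tumor turned 6 of 162 values between the lines and 29 of 162 between the sites, and 48 and 56 of 162 with length correction. Among the followed members, Cox7a1 between the lines was -0.87 with site as a covariate and -0.88 in trunk tumors alone. Sdhb between the sites was 0.14 with length correction, 0.12 with the members kept out of the curve, and 0.30 both with line as a covariate and in FSP1-Cre;NT3 tumors alone. Leaving out 1 tumor, Cox7a1 ran from -1.33 to 1.82 between the lines and from -1.83 to 2.64 between the sites, Sdhb from -0.53 to 0.016 between the sites, and Sdha from -0.068 to 0.39 between the sites. With length correction as well, Cox7a1 was -0.70 between the lines and -1.14 between the sites without tumor 36, and Sdha -0.11. Sdhb between the lines was then 0.0018, 0.023, 0.014 and 0.059 without tumors 13, 18, 27 and 29. Between the sites Sdhb was 0.21, 0.23, 0.054, 0.33 and 0.059 without tumors 13, 18, 25, 27 and 29, and Uqcrh 0.025, 0.13 and 0.23 without tumors 13, 18 and 27. The causes were not tested. Halved counts, the length curve without members and ribosomal genes, and leaving out tumors in the length-corrected fit were chosen after seeing the data. No paired analysis was possible because the mouse numbers are not shared between groups. The 2 lines with 3 tumors each, and 2 perineal tumors, limit what could be called, and low isoforms rest on few counts.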
